A study of Mus musculus with 13 samples.

Results

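The release of transmitter was followed at the RNA level in mouse proprioceptors through 40 named genes of the synaptic vesicle and its release machinery. The genes were chosen by name, from known roles in vesicle docking, fusion and priming, and all 40 were among the 50508 genes listed in the count files. At least 1 read-out molecule of 38 of them was counted in the neurons analysed. They comprised 10 synaptotagmins (*Syt1*, *Syt2*, *Syt3*, *Syt4*, *Syt5*, *Syt6*, *Syt7*, *Syt9*, *Syt11* and *Syt12*), 8 SNARE genes (*Snap25*, *Snap47*, *Vamp1*, *Vamp2*, *Vamp3*, *Vamp4*, *Stx1a* and *Stx3*), 4 regulators of the SNARE complex (*Cplx1*, *Cplx2*, *Stxbp5* and *Stxbp6*) and 4 genes of the SV2 family (*Sv2a*, *Sv2b*, *Sv2c* and *Svop*). The others were 3 synapsins (*Syn1*, *Syn2* and *Syn3*), 4 physins and gyrins (*Syp*, *Synpr*, *Syngr1* and *Syngr3*) and 7 genes of the active zone and of the Rab3 group (*Rab3a*, *Rab3b*, *Rab3c*, *Rims1*, *Rims2*, *Unc13a* and *Unc13b*).

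Proprioceptors of dorsal root ganglia (DRG) send 1 axon branch to muscle and another into the spinal cord. At the central terminals they release glutamate onto motor neurons and interneurons. A vesicle fuses when a vesicle SNARE (a Vamp protein) zips together with *Stx1a* and *Snap25* of the plasma membrane. Synaptotagmins such as *Syt1* and *Syt2* sense the calcium that triggers fusion, complexins hold and release the assembled SNAREs, and Rim and Unc13 proteins prime vesicles at the active zone. Synapsins tether vesicles in the reserve pool, Rab3 proteins guide vesicles to release sites, and the SV2, physin and gyrin proteins are carried in the vesicle membrane. Many of these proteins come in near-equivalent forms, and fast-firing neurons of the hindbrain and spinal cord are known for using *Syt2* and *Vamp1* beside or in place of *Syt1* and *Vamp2*.

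Neurons were sorted by fluorescence, 1 per well, into plates of 96 wells at 4 stages: the adult (older than postnatal day 56; 5 plates), p12 (4 plates), p0 (2 plates) and embryonic day e14.5 (2 plates). The postnatal neurons came from PV:Cre+/-;Rx3:Flp+/-;Ai65+/- mice, in which tdTomato is made only where both recombinases have acted, that is in neurons that have expressed both parvalbumin and *Runx3*. The e14.5 neurons came from TrkC:tdTomato embryos, in which a TrkC allele drives the reporter. The animals were of either sex, 6 adult, 4 p12, 6 p0 and 2 e14.5 in all, and those behind a plate are not named. The 5 adult plates came from 3 experiments, so some of them share a preparation, and leaving out 1 plate can leave in another of the same preparation. A plate was used as the replicate, and p-values measure the spread between plates, part of which may be technical. The values were UMI counts, in which a molecular tag counts each captured mRNA once, and levels are given in CPM, a gene's UMIs scaled to the UMI total of its neuron, averaged over the neurons of a plate. CPM takes no account of transcript length, so different genes were set side by side only as shares within pairs of related genes, as a description.

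The authors kept 586 neurons, 169 at e14.5, 55 at p0, 154 at p12 and 208 in the adult, with between 12 and 94 on a plate. The kept neurons of a plate held between 680212 and 2387288 UMIs, and the median UMIs per neuron were 10604 at e14.5, 41058 at p0, 24462.5 at p12 and 36926.5 in the adult. The p12 replicates 1 and 2 were deeper (means of 65165 and 52324 UMIs per neuron) than replicates 3 and 4 (28433 and 21753), and the neurons of the first pair were in the authors' p12 clusters 2 and 3 and those of the second in clusters 1, 4 and 5. On replicates 1 to 4 of p12, 4 markers of other mechanoreceptors summed to 196, 126, 37.8 and 28.3 CPM and 8 glia markers to 602, 487, 214 and 293, so that both lists were higher on the deeper pair, and their part in differences between the pairs was not tested. The summed level of 5 proprioceptor markers (*Pvalb*, *Runx3*, *Etv1*, *Ntrk3* and *Whrn*) was 1668 and 1708 CPM on the e14.5 plates and 4986 and 5060 at p0. It was between 4076 and 4371 CPM at p12 and between 2761 and 3315 in the adult. In the stage tests described below, *Pvalb* (log2 fold change 2.46) and *Whrn* (4.60) were higher at p0 than at e14.5. *Runx3* was lower (-1.69), and *Etv1* and *Ntrk3* were not called. From p12 to the adult *Pvalb* fell (-0.66) and *Whrn* rose (0.73). The summed level of 6 nociceptor markers was 32.3 and 50.5 CPM at e14.5, 6.05 and 23.6 at p0 and between 0 and 17.8 later. In the authors' e14.5 clusters 3 and 4, with 40 of the 169 neurons, the proprioceptor markers summed to 733 and 690 CPM on the e14.5 plates, against 2008 and 1983 in clusters 1 and 2, and *Maf*, a marker of other mechanoreceptors, stood at 459 and 322 CPM against 21.7 and 25.4. The proprioceptor markers were thus lower in these 40 neurons than in the other 129. The paper proposes that clusters 3 and 4 hold TrkC neurons other than proprioceptors, Merkel cell afferents among them. All 169 neurons stayed in the e14.5 levels and in the main stage tests. The summed level of the glia markers was between 11.3 and 22.6 CPM at e14.5, 516 and 635 at p0, 214 and 602 at p12 and 309 and 852 in the adult, with the highest value on adult replicate 5. *Prx* and *Sox10* had no UMI at e14.5 and means of at most 1.75 CPM at the other stages. From e14.5 to p0, 3 of the 5 glia markers that could be tested rose, among them *Fabp7* from a mean of 3.29 to 239.3 CPM. *Fabp7* fell from p0 to p12 (-1.39 ± 0.43, adjusted p = 0.0367), and a further glia marker from p12 to the adult (-1.20 ± 0.34, adjusted p = 0.0307). No other tested glia marker was called in these later steps. The nociceptor marker *P2rx3* was lower at p12 than at p0 (-6.18 ± 1.27, adjusted p = 0.00574). The part of glial RNA in the differences described here was not tested. The stage and the reporter line changed together between e14.5 and p0 and cannot be told apart there. Depth differed too, and with every neuron thinned to 7000 UMIs, 13 of 28 tested vesicle and release genes were called between these stages, against 23.3% of all genes, and 12 of these 13 were among the 16 called without thinning.

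UMIs were summed over the kept neurons of a plate, and stages were tested against each other by the quasi-likelihood F-test of edgeR over the 11939 genes that passed its filter on low counts, 37 of the 40 vesicle and release genes among them. A gene was called at a Benjamini-Hochberg adjusted p under 0.05 over all tested genes, and each log2 fold change is given ± its standard error. *Syt6*, *Unc13a* and *Unc13b* were not tested. *Unc13a* and *Unc13b*, which encode vesicle priming proteins, had 0 UMIs in 586 neurons, which allows a share of up to 0.512% of neurons with a UMI and a level of up to 0.165 CPM. *Syt6* had no UMI at e14.5, 0.806 and 0 CPM on the p0 plates, 0, 1.12, 0.619 and 0 CPM on the p12 plates and none in 208 adult neurons, which allows up to 1.44% of them. These limits cover counting error only, and a count of 0 here does not show that a gene was not expressed. Why the Unc13 genes had no count was not tested. The median level of the tested vesicle and release genes was 118.6 CPM, against 21.4 CPM over all tested genes, so that these genes had more counts behind a test than the typical gene.

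Between e14.5 and p0, 16 of the 37 tested genes were called (43.2%), 15 higher and 1 lower at p0, against 27.8% of all tested genes, 14.7% higher and 13.1% lower. The median log2 fold change was 0.68 for the vesicle and release genes and 0.01 over all genes. From p0 to p12, 17 were called (45.9%), 10 higher and 7 lower, against 18.1% of all genes (9.10% higher, 9.01% lower), with medians of 0.12 and 0.02. From p12 to the adult, 11 were called (29.7%), 4 higher and 7 lower, against 14.1% of all genes (7.57% higher, 6.56% lower), with medians of 0.12 and 0.04. Over the whole span from e14.5 to the adult, 31 were called (83.8%), 21 higher and 10 lower, against 57.6% of all genes (29.2% higher, 28.4% lower), with medians of 1.00 and 0.06. With the e14.5 neurons of clusters 1 and 2 only, 15 were called from e14.5 to p0 and 29 from e14.5 to the adult, against 24.8% and 55.3% of all genes in that fit. With the adult neurons of numbered clusters only, 14 were called from p12 to the adult and 33 from e14.5 to the adult. The shares of all genes in that fit were 13.9% and 57.1%. Consecutive steps share the plates of the stage between them, so their values are given side by side for each gene and were not set against each other.

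**Figure D1:**
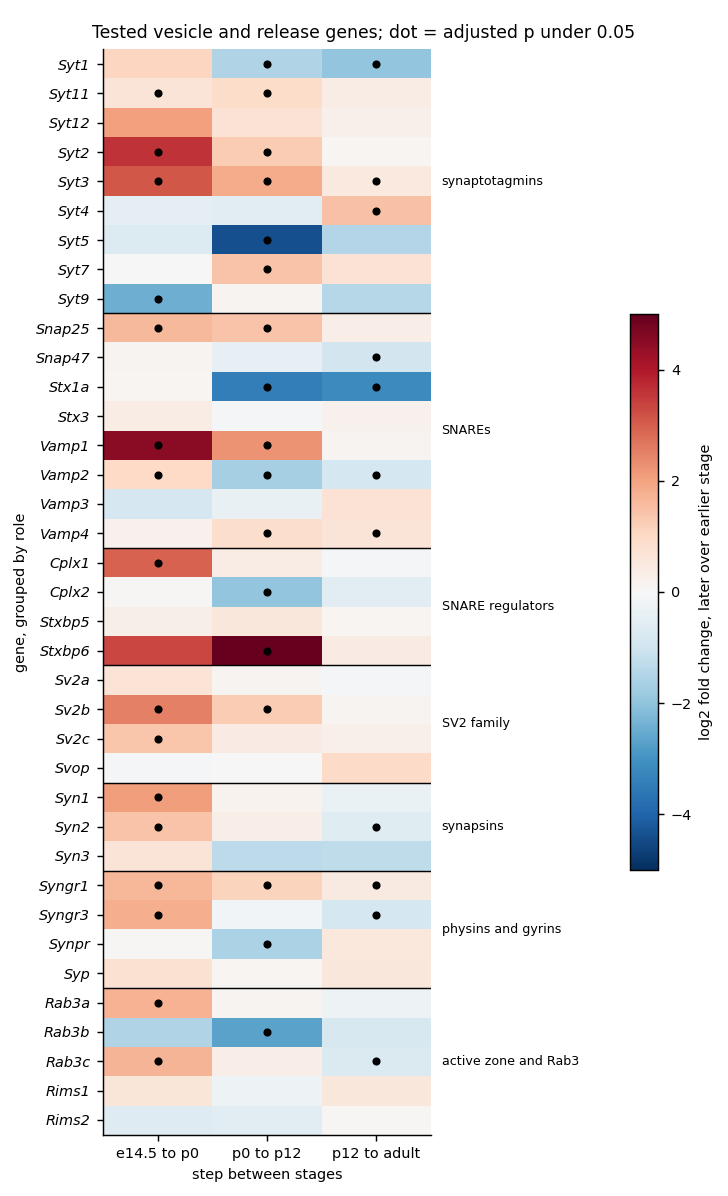
Log2 fold change of the 37 tested vesicle and release genes (rows, grouped by role) over 3 steps between stages (columns), on a colour scale from -5 (blue, lower at the later stage) to 5 (red, higher); a dot marks an adjusted p under 0.05. The first step holds 15 called rises and 1 called fall, and the 2 later steps hold called changes in both directions. The colour of Stxbp6 in the first step is set against a stage without a UMI and is no bound.

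The summed level of all 40 genes was between 3001 and 3222 CPM on the e14.5 plates, 7840 and 8323 at p0, 9874 and 12221 at p12 and 10097 and 12667 in the adult. The range of e14.5 lay below that of every later stage, and the ranges of p12 and the adult overlapped.

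Promoter windows were read for genes that moved in opposite ways over these stages, to let the sequences be read beside the levels. The windows hold the 150 bases before an annotated start in RefSeq on GRCm38.p6, printed 5′ to 3′ on the strand of the gene. Of the 40 genes, 29 had a window in the table, and for 16 of them a window held no part of an annotated exon, from which the printed ones were taken. The windows of *Syt2*, *Cplx2* and *Syt1* lie within their own genes, before a start downstream of the gene's outermost one. *Syt2*, *Sv2b* and *Syngr1* rose over the steps from e14.5 to p12, and *Stx1a*, *Cplx2* and *Syt1* fell between p0 and p12. Capitals mark matches on either strand to the letters TATAAA of a TATA box, the letters GGGCGG of a GC box, or the CCAAT box that its name spells.
*Syt2*, chr1:134709150-134709299, plus strand: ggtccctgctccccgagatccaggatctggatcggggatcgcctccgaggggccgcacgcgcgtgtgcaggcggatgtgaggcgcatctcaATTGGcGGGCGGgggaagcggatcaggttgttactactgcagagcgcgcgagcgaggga
*Sv2b*, chr7:75309263-75309412, minus strand: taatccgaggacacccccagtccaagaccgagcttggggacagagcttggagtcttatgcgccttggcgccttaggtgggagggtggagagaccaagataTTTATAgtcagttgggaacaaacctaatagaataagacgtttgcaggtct
*Syngr1*, chr15:80091184-80091333, plus strand: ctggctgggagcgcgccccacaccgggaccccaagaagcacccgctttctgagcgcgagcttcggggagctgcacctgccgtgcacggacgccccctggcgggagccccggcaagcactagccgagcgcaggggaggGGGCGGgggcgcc
*Stx1a*, chr5:135023332-135023481, plus strand: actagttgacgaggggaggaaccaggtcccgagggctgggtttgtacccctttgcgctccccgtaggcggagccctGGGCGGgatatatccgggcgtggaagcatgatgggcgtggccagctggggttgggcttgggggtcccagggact
*Cplx2*, chr13:54302406-54302555, plus strand: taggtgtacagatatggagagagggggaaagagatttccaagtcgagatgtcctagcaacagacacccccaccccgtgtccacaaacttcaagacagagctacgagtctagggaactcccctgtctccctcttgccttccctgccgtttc
*Syt1*, chr10:109009112-109009261, minus strand: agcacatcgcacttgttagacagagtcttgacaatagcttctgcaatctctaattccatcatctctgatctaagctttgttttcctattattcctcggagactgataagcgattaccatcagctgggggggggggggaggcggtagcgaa

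In the *Syt2* window the GC box began 53 bases before the start, and a CCAAT box on the opposite strand began 59 bases before it. The *Sv2b* window held a TATA box on the opposite strand, 50 bases before the start. The GC boxes of *Syngr1* and *Stx1a* began 13 and 74 bases before their starts. The windows of *Cplx2* and *Syt1* held none of the searched letters, while another annotated start of *Syt1* had a window with a GC box and a CCAAT box. A GC box stood in a window of 21 of the 29 genes and in 28.6% of all 32851 windows of this length, a CCAAT box in 6 genes and 24.5% of windows, and a TATA box in 3 genes (*Rab3b*, *Stx3* and *Sv2b*) and 7.57% of windows. Several genes have more than 1 window, so the share of genes and the share of windows are not the same measure. An E-box (CACGTG, 4.30% of windows) stood only in *Syt6* among the 29, and the cAMP response element (TGACGTCA, 1.36% of windows) and the left part of the RE1 element (TTCAGCACC, 0.158% of windows) stood in none of them. The motifs do not overlap each other in the printed windows. A match is a description of letters and no evidence of binding.

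Among the synaptotagmins, *Syt2* and *Syt1*, both fast calcium sensors of vesicle fusion, moved in opposite ways after birth. *Syt2* stood at 10.7 and 17.9 CPM on the e14.5 plates, 159.9 and 142 at p0, 358, 331, 366 and 343 at p12 and 409, 365, 418, 376 and 392 in the adult. Each stage up to p12 lay wholly above the one before, and the p12 and adult plates overlapped. It rose by 3.63 ± 0.24 on the log2 scale from e14.5 to p0 (adjusted p = 4.26e-07) and by 1.29 ± 0.18 from p0 to p12 (adjusted p = 0.000186), and the adult difference from p12 was 0.08 ± 0.13 (adjusted p = 0.696). *Syt1* stood at 262 and 185 CPM at e14.5, 524 and 475 at p0, 122, 115, 259 and 218 at p12 and 51.7, 32.9, 48.6, 39.4 and 71.0 in the adult. The p0 plates were above all others, and the adult plates below all others. Its difference from e14.5 to p0 was 1.08 ± 0.39 (adjusted p = 0.0532). It fell by 1.50 from p0 to p12 (SE 0.33, adjusted p = 0.00531, and 0.062 without p0 replicate 1) and by 1.96 from p12 to the adult (SE 0.28, adjusted p = 0.000534).

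*Syt3*, a high-affinity calcium sensor, was nearly absent at e14.5 with 0.778 and 2.98 CPM. It stood at 15.7 and 20.4 CPM at p0, 73.2, 73.5, 52.7 and 56.7 at p12 and 94.8, 82.8, 100.3, 79.0 and 85.4 in the adult, so that no stage overlapped the next. The rise was 3.10 ± 0.43 from e14.5 to p0 (adjusted p = 0.000181, but 1.12 and 0.569 in thinned neurons), 1.87 ± 0.24 from p0 to p12 (adjusted p = 0.000118) and 0.51 ± 0.16 from p12 to the adult (adjusted p = 0.0441). The call of the last step was lost without any 1 of the 9 p12 and adult plates, with adjusted p between 0.0544 and 0.134. *Syt7*, the slow calcium sensor of asynchronous release, stood at 10.8 and 6.19 CPM at e14.5, 7.83 and 8.80 at p0, 22.3, 36.8, 16.7 and 14.48 at p12 and 28.3, 44.4, 40.5, 29.0 and 24.3 in the adult. All postnatal plates from p12 on were above all earlier ones. *Syt7* rose by 1.41 ± 0.38 from p0 to p12 (adjusted p = 0.0191, but 0.133 without p0 replicate 1, 0.134 without replicate 2 and 0.675 in thinned neurons) and by 2.13 ± 0.37 from e14.5 to the adult (adjusted p = 0.00021).

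*Syt5*, a further calcium-binding synaptotagmin, stood at 34.5 and 50.2 CPM at e14.5, 30.7 and 26.4 at p0, 1.09, 1.87, 1.45 and 0 at p12, and 0, 1.17, 0.332, 0 and 1.68 in the adult. The plates of the 2 early stages were all above those of the 2 later ones. *Syt5* fell by 4.41 from p0 to p12 (SE 0.53, adjusted p = 6.4e-05), and its summed level at e14.5 was 129 times the adult one, with 79 against 3 UMIs and an exact 95% interval of 42.6 to 639 that covers counting error only. *Syt9*, a calcium sensor related to *Syt1* and *Syt2*, stood at 20.5 and 12.4 CPM at e14.5, 2.88 and 1.47 at p0, 0, 2.90, 5.61 and 7.34 at p12 and 4.13, 1.68, 0.778, 1.29 and 1.51 in the adult. It was the only vesicle and release gene called lower at p0 than at e14.5, by 2.44 (SE 0.75, adjusted p = 0.0262). That call was lost without each of the 4 plates of these stages, with adjusted p between 0.0664 and 0.188, while the difference from e14.5 to the adult was -3.72 ± 0.62 (adjusted p = 0.000129).

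*Syt4* and *Syt11* belong to the synaptotagmins that lack full calcium binding. *Syt11* stood at 374 and 348 CPM at e14.5, 574 and 575 at p0, 1261, 1186, 828 and 867 at p12 and 1498, 1468, 1194, 1144 and 1277 in the adult. It rose by 0.64 ± 0.20 from e14.5 to p0 (adjusted p = 0.0268, and between 0.0709 and 0.134 without each of these 4 plates; 0.30 in thinned neurons, adjusted p = 0.436) and by 0.92 ± 0.18 from p0 to p12 (adjusted p = 0.00234). *Syt4* stood at 119 and 125 CPM at e14.5, 117 and 79.0 at p0, 77.4, 109.9, 40.1 and 35.0 at p12 and 238, 309.7, 136, 114 and 97.8 in the adult. Adult replicate 5 lay within the range of the deeper p12 plates, and replicates 1 and 2 were above all other plates. *Syt4* rose by 1.45 ± 0.35 from p12 to the adult (adjusted p = 0.0148), and the call was lost without p12 replicate 3 (adjusted p = 0.0634), without replicate 4 (0.0556) and with p12 replicates 1 and 2 alone (0.192). *Syt12*, which is also calcium-independent, stood at 2.90 and 0 CPM at e14.5 and 16.9, 12.9, 12.8, 5.50 and 4.98 in the adult. Its summed adult level was 8.29 times that of e14.5 (122 against 3 UMIs, exact 95% interval 2.77 to 40.8), and the call over this span (adjusted p = 0.0052) was lost without e14.5 replicate 2 (0.0601). Of the 9 tested synaptotagmins, 4, 6 and 3 were called in the 3 steps, with 3, 4 and 2 of them higher at the later stage, against 27.8%, 18.1% and 14.1% of all genes.

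Of the SNARE genes, the vesicle SNARE *Vamp1* had the largest change over the whole span in the main edgeR fit, 6.90 on the log2 scale. *Stx1a* came next with -6.56. Under the alternatives the values ran from 6.79 to 7.42 for *Vamp1* and from -7.43 to -6.21 for *Stx1a*, so their order is not firm. The *Vamp1* gene lies on chr6:125215581-125222306, plus strand. *Vamp1* stood at 5.15 and 5.52 CPM at e14.5, 138 and 156 at p0, 758, 729, 518 and 498 at p12 and 658, 735, 727, 679 and 702 in the adult. It rose by 4.52 ± 0.26 from e14.5 to p0 (adjusted p = 9.49e-08) and by 2.24 ± 0.18 from p0 to p12 (adjusted p = 3.31e-06), without overlap of the stages. From p12 to the adult the difference was 0.15 ± 0.12 (adjusted p = 0.436). *Vamp2*, the vesicle SNARE of most forebrain synapses, on chr11:69088528-69092381, plus strand, stood at 166 and 161 CPM at e14.5, 375 and 317 at p0, 116, 130.1, 108 and 107 at p12 and 70.4, 62.5, 52.1, 55.2 and 89.2 in the adult. It was highest at p0 and lowest in the adult, again without overlap of neighbouring stages. Its rise from e14.5 to p0 was 0.99 ± 0.23 (adjusted p = 0.00679), and the call was lost without e14.5 replicate 2 (0.0651), without p0 replicate 1 (0.0602) and with all neurons thinned to 7000 UMIs (0.0775). It then fell by 1.67 from p0 to p12 (SE 0.20, adjusted p = 5.05e-05) and by 0.89 from p12 to the adult (SE 0.16, adjusted p = 0.0031, but 0.205 in thinned neurons).

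Of the plasma membrane SNAREs, *Snap25* rose and *Stx1a* fell. *Snap25*, on chr2:136713439-136782428, plus strand, stood at 396 and 365 CPM at e14.5, 1314 and 1195 at p0, 2811, 2921, 3462 and 3059.7 at p12 and 4639, 4455, 4265, 3975 and 2019.8 in the adult. Adult replicate 5 lay below all p12 plates, and the other 4 adult plates above them. The rise was 1.62 ± 0.33 from e14.5 to p0 (adjusted p = 0.00282) and 1.43 ± 0.30 from p0 to p12 (adjusted p = 0.00411, but 0.0524 without p0 replicate 1 and 0.0751 without replicate 2). *Stx1a* stood at 40.7 and 41.4 CPM at e14.5, 50.4 and 40.4 at p0, 4.45, 4.05, 3.01 and 7.21 at p12, and 0.523, 1.51, 0, 0 and 0 in the adult. It fell by 3.47 from p0 to p12 (SE 0.40, adjusted p = 4.84e-05) and by 3.18 from p12 to the adult (SE 0.63, adjusted p = 0.00492, but 0.203 in thinned neurons and 0.0747 with p12 replicates 1 and 2 alone). With 78 against 3 UMIs, its summed level at e14.5 was 127 times the adult one (exact 95% interval 42.0 to 631), and at p12, with 17 UMIs, it was 11.1 times (3.22 to 59.3). The early plates and the later plates of *Stx1a* did not overlap.

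*Vamp4*, a SNARE of endosomal and bulk retrieval routes, stood at 41.9 and 39.2 CPM at e14.5, 44.8 and 48.0 at p0, 77.3, 97.4, 93.8 and 78.8 at p12 and 129.6, 111, 149, 122 and 129.9 in the adult. It rose by 0.88 ± 0.20 from p0 to p12 (adjusted p = 0.008, but 0.129 without p0 replicate 1 and 0.0567 without replicate 2) and by 0.65 ± 0.15 from p12 to the adult (adjusted p = 0.0106, and 0.166 in thinned neurons). *Snap47*, a relative of *Snap25* that is not confined to the synapse, stood at 279 and 317 CPM at e14.5, 362 and 314 at p0, 266, 226, 239.6 and 245 at p12 and 156, 139, 139, 113 and 168 in the adult. All adult plates were below all others, and the fall from p12 was 0.92 (SE 0.14, adjusted p = 0.000665). *Vamp3* lay between 3.60 and 18.5 CPM on all 13 plates and *Stx3* between 5.20 and 14.3 CPM, and neither was called in any step. Of the 8 SNARE genes, 3, 5 and 4 were called in the 3 steps, with 3, 3 and 1 of them higher at the later stage, against 27.8%, 18.1% and 14.1% of all genes.

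**Figure D2:**
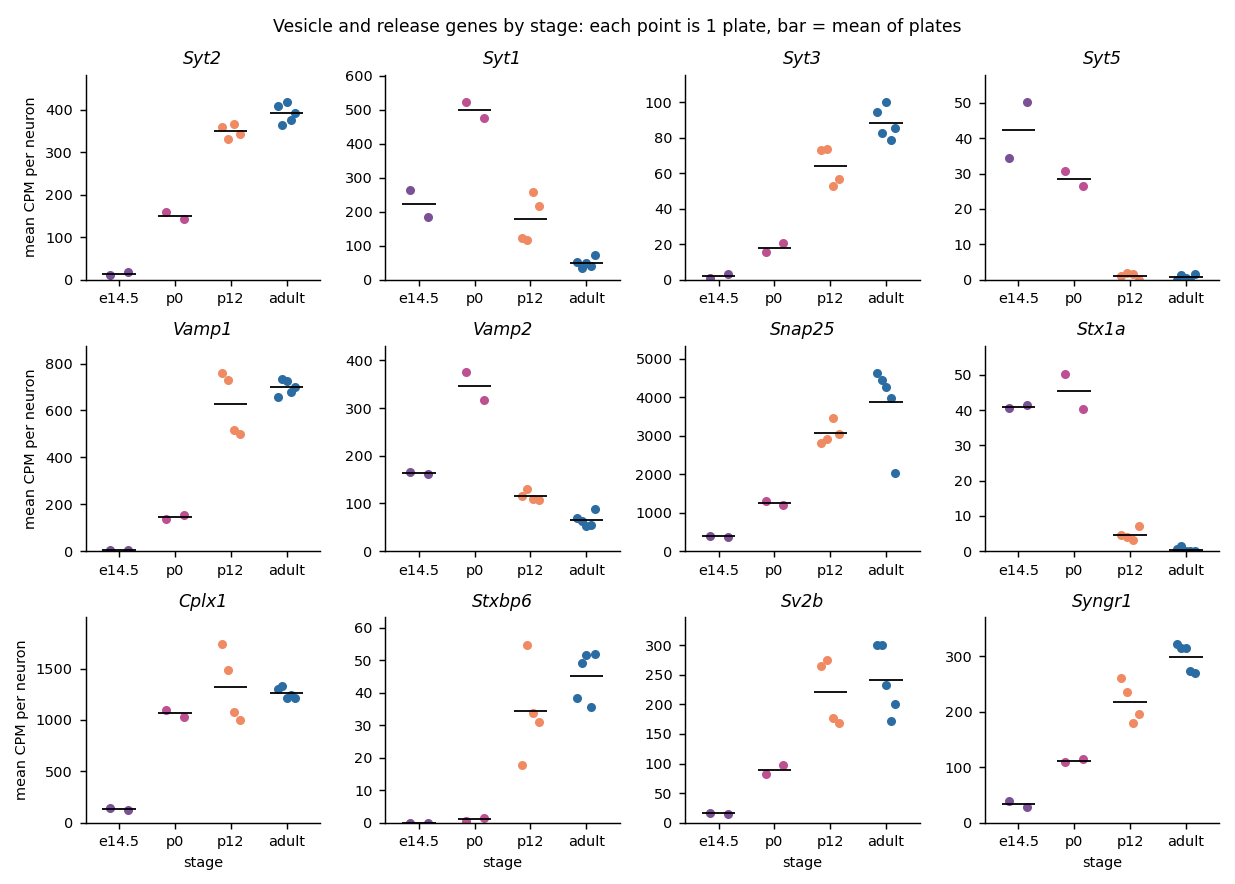
Mean level of 12 vesicle and release genes (CPM, linear axes from 0) on each of the 13 plates, by stage from e14.5 to the adult; a point is 1 plate and a bar the mean of the plates. Syt2, Vamp1, Snap25 and Cplx1 stood at their lowest on the e14.5 plates, and Syt1 and Vamp2 peaked at p0 and were lowest in the adult, where Vamp2 lay between 52.1 and 89.2 CPM.

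Complexins clamp and activate the assembled SNAREs. *Cplx1* stood at 145 and 124 CPM at e14.5, 1101 and 1027 at p0, 1737, 1485, 1074 and 1004 at p12 and 1307, 1327, 1211, 1242 and 1214 in the adult. It rose by 2.96 ± 0.21 from e14.5 to p0 (adjusted p = 7.57e-07), and the later stages overlapped. *Cplx2* stood at 23.0 and 26.4 CPM at e14.5, 38.4 and 17.2 at p0, 5.26, 5.98, 10.7 and 9.79 at p12 and 2.21, 3.72, 3.87, 7.27 and 6.07 in the adult. It fell by 1.97 from p0 to p12 (SE 0.48, adjusted p = 0.0103), and without p0 replicate 1 the difference was -1.26 and the call was lost (0.274). From e14.5 to the adult it fell by 2.44 (SE 0.46, adjusted p = 0.0004), but adjusted p was 0.0832 with the e14.5 neurons of clusters 1 and 2 only. 

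*Stxbp6*, or amisyn, binds the SNAREs of the plasma membrane. The gene, on chr12:44852484-45075118, minus strand, had no UMI in 169 e14.5 neurons, which allows up to 1.78% of them, and stood at 0.543 and 1.48 CPM at p0. It reached 17.6, 54.6, 33.7 and 30.8 CPM at p12 and 38.2, 49.0, 51.6, 35.6 and 51.9 in the adult. The summed level at p12 was 32.0 times that of p0, with 132 against 2 UMIs (exact 95% interval 8.69 to 267), and the edgeR difference for that step was 4.98 ± 0.57 (adjusted p = 6.4e-05). Against a floor of 3 counts over the e14.5 plates, or 1.59 CPM, the level of the summed adult UMIs, 36.2 CPM, was at least 22.8-fold higher. *Stxbp5*, or tomosyn, an inhibitor of SNARE assembly, was called only over the whole span, with 12.6 and 12.2 CPM at e14.5 and 30.3, 24.7, 23.0, 21.3 and 18.9 in the adult. This difference of 1.00 ± 0.33 (adjusted p = 0.0163) was not called without e14.5 replicate 1 (0.111) or replicate 2 (0.0503).

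In the SV2 family, whose members are glycoproteins of the vesicle membrane, *Sv2b* changed most. It stood at 16.8 and 14.8 CPM at e14.5, 81.4 and 97.2 at p0, 266, 274, 177 and 169 at p12 and 301, 301, 232, 171 and 200.3 in the adult. It rose by 2.53 ± 0.31 from e14.5 to p0 (adjusted p = 8.14e-05) and by 1.26 ± 0.24 from p0 to p12 (adjusted p = 0.00221, and 0.062 without p0 replicate 1). *Sv2c* stood at 56.6 and 51.6 CPM at e14.5, 121 and 143 at p0, 259, 193, 122 and 92.4 at p12 and 218, 191, 181, 212 and 244 in the adult, and rose by 1.39 ± 0.28 in the first step (adjusted p = 0.00281). The shallower p12 plates of *Sv2c* lay near or below the p0 plates, and the deeper ones among or above the adult plates. *Sv2a*, at 85.0 and 79.8 CPM at e14.5 and 137, 148, 122, 109 and 116 in the adult, was called only over that span (0.70 ± 0.23, adjusted p = 0.0173), but not without e14.5 replicate 2 (0.11) or in thinned neurons, where it was 0.27 (0.429). *Svop*, a transporter-like relative, lay between 12.9 and 70.5 CPM on all plates and was not called (adjusted p = 0.0505 from p12 to the adult).

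The synapsins *Syn1* and *Syn2* were called higher at p0 than at e14.5. *Syn1* stood at 59.9 and 34.5 CPM at e14.5, 193 and 190.1 at p0, 283, 257, 151 and 148 at p12 and 213, 205, 145, 131 and 166 in the adult, and rose by 2.10 ± 0.30 in the first step (adjusted p = 0.000254). *Syn2* stood at 55.9 and 68.5 CPM at e14.5, 179 and 169 at p0, 186, 221, 236 and 214 at p12 and 180.0, 167, 162, 133 and 135 in the adult. It rose by 1.42 ± 0.25 in the first step (adjusted p = 0.000932) and fell by 0.62 from p12 to the adult (SE 0.15, adjusted p = 0.0164). The later call of *Syn2* was lost without p12 replicate 3 (0.0631) or replicate 4 (0.054) and in thinned neurons (0.263). *Syn3* stood at 7.72 and 6.66 CPM at e14.5, 12.96 and 13.9 at p0, 0, 2.14, 5.99 and 6.29 at p12 and 1.01, 2.05, 1.25, 2.06 and 5.44 in the adult. It was called lower in the adult than at e14.5 (-1.91 ± 0.68, adjusted p = 0.025), but not without e14.5 replicate 1 (0.206) or replicate 2 (0.0645).

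*Syngr1* and *Syngr3* are synaptogyrins, and *Syp* and *Synpr* the physins, all 4 being proteins of the vesicle membrane. *Syngr1* stood at 38.5 and 27.4 CPM at e14.5, 109 and 115 at p0, 261, 235, 179 and 196 at p12 and 321, 314, 315, 274 and 269.5 in the adult, without overlap between stages. It rose by 1.66 ± 0.23 (adjusted p = 0.000162), 1.11 ± 0.19 (adjusted p = 0.000848) and 0.45 ± 0.13 (adjusted p = 0.0393) in the 3 steps, and the last call was lost under 11 of 16 alternatives, among them leaving out any plate but p12 replicate 1 (adjusted p between 0.0503 and 0.124). *Syngr3* stood at 64.5 and 59.1 CPM at e14.5, 239 and 233 at p0, 300.3, 214, 176 and 159 at p12 and 96.1, 106, 129, 105 and 161 in the adult. It rose by 1.84 ± 0.25 in the first step (adjusted p = 0.000168) and fell by 0.87 in the last (SE 0.16, adjusted p = 0.00298, but 0.0702 in thinned neurons). *Syp*, at 106 and 135 CPM at e14.5 and 372, 455, 267, 262 and 238 in the adult, was called only over that span (1.45 ± 0.36, adjusted p = 0.00324). *Synpr* stood at 20.8 and 12.0 CPM at p0 and 12.7, 9.16, 4.46 and 0.925 at p12, and its fall of that step (-1.60 ± 0.53, adjusted p = 0.0488) was lost without 5 of the 6 plates, with adjusted p up to 0.385. *Syngr1* overlaps the highly expressed *Rpl3* in the annotation, and where the counting did not use strand its level is uncertain.

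Of the Rab3 genes, which encode the small GTPases of the vesicle, *Rab3a* and *Rab3c* were called higher at p0 than at e14.5. *Rab3b* was called lower at p12 than at p0, and its p0 plates already lay below its e14.5 plates, a step that was not called. *Rab3a* stood at 479.9 and 360.1 CPM at e14.5, 1500.4 and 1473 at p0, 1648, 1361, 1513 and 1497 at p12 and 891, 829, 1357, 1334 and 1861 in the adult, and rose by 1.74 ± 0.30 in the first step (adjusted p = 0.000914). Its adult plates spread by more than those of p12, with replicates 1 and 2 lowest and replicate 5 highest. *Rab3c* stood at 153 and 171 CPM at e14.5, 551 and 478 at p0, 709.6, 778, 572 and 493 at p12 and 458, 426, 396, 359.9 and 273 in the adult. It rose by 1.69 ± 0.25 in the first step (adjusted p = 0.000311) and fell by 0.72 in the last (SE 0.16, adjusted p = 0.00937), where all adult plates lay below all p12 plates. *Rab3b* stood at 52.1 and 66.5 CPM at e14.5, 23.2 and 19.5 at p0, 10.5, 0, 1.78 and 0 at p12 and 3.43, 1.00, 1.17, 0.884 and 2.62 in the adult. Its fall from p0 to p12 was 2.66 on the log2 scale (-2.66 ± 0.72, adjusted p = 0.0186), and the call was lost without p0 replicate 1 (0.153), p0 replicate 2 (0.0623) or p12 replicate 3 (0.0592). Over the whole span *Rab3b* fell by 4.98 (SE 0.61, adjusted p = 7.42e-06).

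*Rims1* and *Rims2* encode scaffolds of the active zone. *Rims1* lay between 8.17 and 39.6 CPM on all plates and was not called in any comparison of stages. *Rims2* stood at 15.9 and 15.3 CPM at e14.5 and 6.95, 4.30, 8.18, 7.47 and 3.37 in the adult, without overlap. It was called lower over that span (-1.15 ± 0.37, adjusted p = 0.0159), but not without e14.5 replicate 1 (0.12) or replicate 2 (0.0604).

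Where 2 genes encode alternative forms of the same component, the share of one in their summed UMIs was followed as a description. *Vamp1* held 3.33% and 3.85% of the UMIs of *Vamp1* and *Vamp2* on the e14.5 plates, 26.9% and 33.9% at p0, 88.9%, 87.5%, 85.6% and 84.5% at p12 and 92.9%, 94.3%, 94.3%, 93.3% and 89.9% in the adult. The mean share was 3.59% ± 0.363 (SD, n = 2 plates), 30.4% ± 4.89 (n = 2), 86.6% ± 1.96 (n = 4) and 92.9% ± 1.80 (n = 5), without overlap of the stages. *Syt2* held 5.63% ± 1.63, 25.4% ± 1.65, 71.6% ± 7.50 and 90.6% ± 1.90 of the UMIs of *Syt2* and *Syt1* at the same stages. At p12 replicates 1 and 2, which were deeper and higher in the glia and other mechanoreceptor markers, stood at 78.3% and 78.0%, and replicates 3 and 4 at 64.7% and 65.6%.

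The other pairs moved earlier or by less. *Sv2b* held 16.4% ± 0.445, 41.3% ± 4.55, 60.9% ± 3.32 and 64.5% ± 2.11 of the UMIs of *Sv2b* and *Sv2a* from e14.5 to the adult. *Cplx1* held 84.1% ± 1.50 of the UMIs of the complexin pair at e14.5, 97.6% ± 1.18 at p0, 99.5% ± 0.251 at p12 and 99.6% ± 0.196 in the adult. *Rab3a* held 87.3% ± 4.55 of the UMIs of *Rab3a* and *Rab3b* at e14.5 and 98.6% ± 0.258 at p0, with 99.8% at both later stages.

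**Figure D3:**
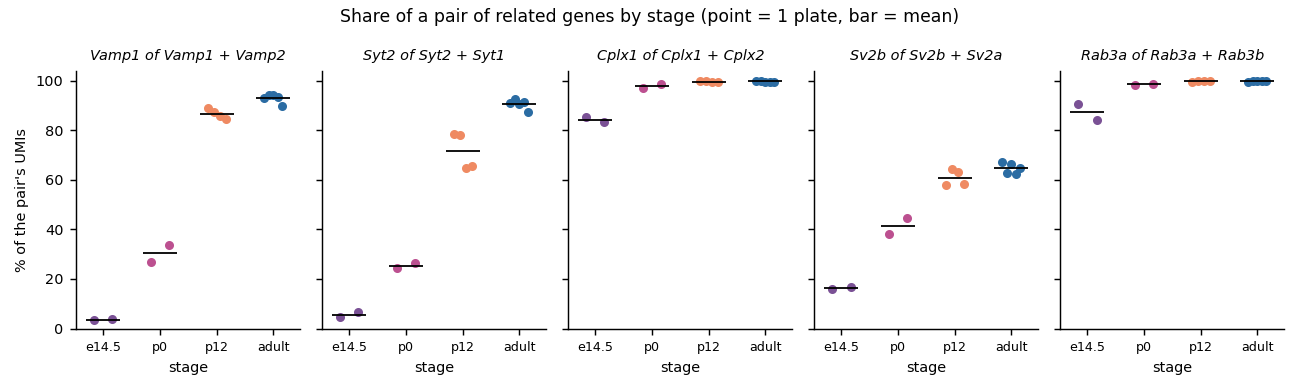
Share of the first gene in the summed UMIs of 5 gene pairs (percent, linear axes from 0) on each plate, by stage; a point is 1 plate and a bar the mean of the plates. The shares of Vamp1 and Syt2 rose from means of 3.59% and 5.63% at e14.5 to 92.9% and 90.6% in the adult, while those of Cplx1 and Rab3a were above 80% at every stage.

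Single neurons were compared after drawing 7000 UMIs from each, which left out 18 e14.5 and 2 p12 neurons. At e14.5, 58.3% of 151 neurons had *Vamp2* without *Vamp1*, 0% had *Vamp1* alone and 2.65% had both. At p0, 61.8% of 55 neurons had both. In the adult, 63.5% of 208 neurons had *Vamp1* alone, 34.6% both and 0.962% *Vamp2* alone. Without thinning, the share with both was 6.51% at e14.5, 98.2% at p0, 89.6% at p12 and 80.3% in the adult, shares that move with depth and were not compared between stages. For *Syt2* and *Syt1*, the thinned share with both was 5.96%, 65.5%, 61.8% and 21.2% from e14.5 to the adult, and that with *Syt2* alone 0.662%, 1.82%, 26.3% and 69.7%. Unthinned, 74.5% of adult neurons held both. A UMI of free RNA can enter a well of a neuron that does not express the gene, and no cell type without these genes was on the plates to set that level.

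A wider list of 111 other genes of vesicle traffic and release was read beside the 40. Of these 111, 109 were in the count files and 75 were tested between stages. In the 3 steps, 29 (25 higher, 4 lower), 22 (14 and 8) and 11 (5 and 6) of them were called, and 55 (42 and 13) from e14.5 to the adult. These are 38.7%, 29.3%, 14.7% and 73.3%, against 27.8%, 18.1%, 14.1% and 57.6% of all genes, so that the share of the last step lay near that of all genes. Median log2 fold changes were 0.64, 0.34, 0.07 and 0.90. From e14.5 to p0 the largest rises were those of *Sncb* (4.01), *Slc17a7* (3.04), which encodes a vesicular glutamate transporter, and *Napb* (2.42), a cofactor of SNARE recycling, and the largest falls those of *Rims3* (-1.36), *Sytl2* (-1.27) and *Stx2* (-1.06). From p0 to p12, *Sytl2* (3.25), *Dnm3* (1.59), a dynamin, and *Nsf* (1.46), the SNARE-dissociating ATPase, rose most, and *Syt17* (-3.03) and *Syt16* (-2.45) were among the genes that fell. From p12 to the adult, *Stxbp2* (2.02), *Stxbp5l* (1.33) and *Dnm3* (1.00) rose most, and *Syt16* (-3.67) and *Syt17* (-2.42) were among the 6 genes that fell. *Stxbp2* ranged from 15.8 to 106.6 CPM between the adult plates.

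The authors had sorted 166 of the 208 adult neurons into 5 clusters, with 51, 15, 41, 28 and 31 neurons in clusters 1 to 5, and gave 42 neurons no numbered cluster. The paper places such neurons in non-proprioceptor classes or in very small clusters. All 42 stayed in the adult stage levels and the main stage tests. For a comparison of clusters, UMIs were summed over the neurons of 1 cluster on 1 plate, with at least 2 neurons, which gave 18 sums of 2 to 19 neurons and 65389 to 840341 UMIs. The sums were fitted with the plate as a block over 7370 genes, 26 of the vesicle and release genes among them. Each cluster was set against the mean of the others in the same fit, so these contrasts depend on each other. A gene that is high in 1 cluster moves the contrasts of the other clusters down. The clusters were found in the same neurons, from all genes, so the p-values describe how the plates repeat a cluster and are no independent test of it. Clusters 1 and 5 gave sums on all 5 plates, cluster 3 on replicates 2 to 5, and clusters 2 and 4 on replicates 1 and 2 only. Median UMIs per neuron ran from 20138 in cluster 4 to 59922 in cluster 1, and the mean summed level of the glia markers from 315 CPM in cluster 4 to 712 in cluster 3. Of the 4 glia markers that could be tested, 2 differed across clusters, and 1 of these was higher in cluster 4 (3.03 ± 0.63, adjusted p = 0.00398), lower in cluster 1 (-2.53 ± 0.55, adjusted p = 0.00228) and lower in cluster 1 than in cluster 5 (-2.11 ± 0.55, adjusted p = 0.0118). *Maf*, the marker of other mechanoreceptors, was higher in cluster 1 (2.73 ± 0.15, adjusted p = 2.1e-12) and cluster 5 (0.75 ± 0.20, adjusted p = 0.0215), lower in cluster 4 (-3.80 ± 0.42, adjusted p = 1.09e-06), and higher in cluster 1 than in cluster 5 (1.58 ± 0.16, adjusted p = 6.05e-08). The proprioceptor markers summed to means of 3529 CPM in cluster 1, 3037 in cluster 2 and 3448 in cluster 3. They summed to 2293 CPM in cluster 4 and 2915 in cluster 5. *Ntrk3* (0.91 ± 0.09, adjusted p = 3.16e-08) and *Etv1* (0.29 ± 0.09, 0.0254) were higher in cluster 1. *Ntrk3* was lower in cluster 4 (-0.74 ± 0.16, 0.00509) and *Whrn* in cluster 5 (-1.08 ± 0.19, 0.000373). No other proprioceptor marker was called in a cluster against the others. The part of other cells' RNA in the cluster differences was not tested. With every neuron thinned to 7000 UMIs, which left 19 of the 26 genes to test, 6 were called across clusters in place of 11, against 12.4% of all genes.

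Of the 26 tested genes, 11 differed between some of the clusters (42.3%), against 16.0% of all tested genes. The median level of these 26 was 161.5 CPM, against 43.0 CPM over all genes. *Stxbp6* (adjusted p = 1.62e-06), *Syn2* (3.92e-07), *Sv2a* (6.34e-06), *Vamp2* (2.98e-05), *Snap47* (4.35e-05) and *Svop* (0.000144) were called under every alternative in which they could be tested, 13 of 14 for *Stxbp6*, *Vamp2* and *Svop* and 14 of 14 for the other three. *Vamp1* (0.00237), *Syt4* (0.00488), *Syngr3* (0.00736), *Syngr1* (0.00885) and *Syt7* (0.0313) were called in the main comparison but not under all alternatives. Several of the abundant genes were not called across the clusters. *Snap25* had an adjusted p of 0.283, *Rab3a* of 0.244, *Rab3c* of 0.649, *Sv2b* of 0.919, *Syt2* of 0.297, *Syt11* of 0.309 and *Cplx1* of 0.0543.

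**Figure D4:**
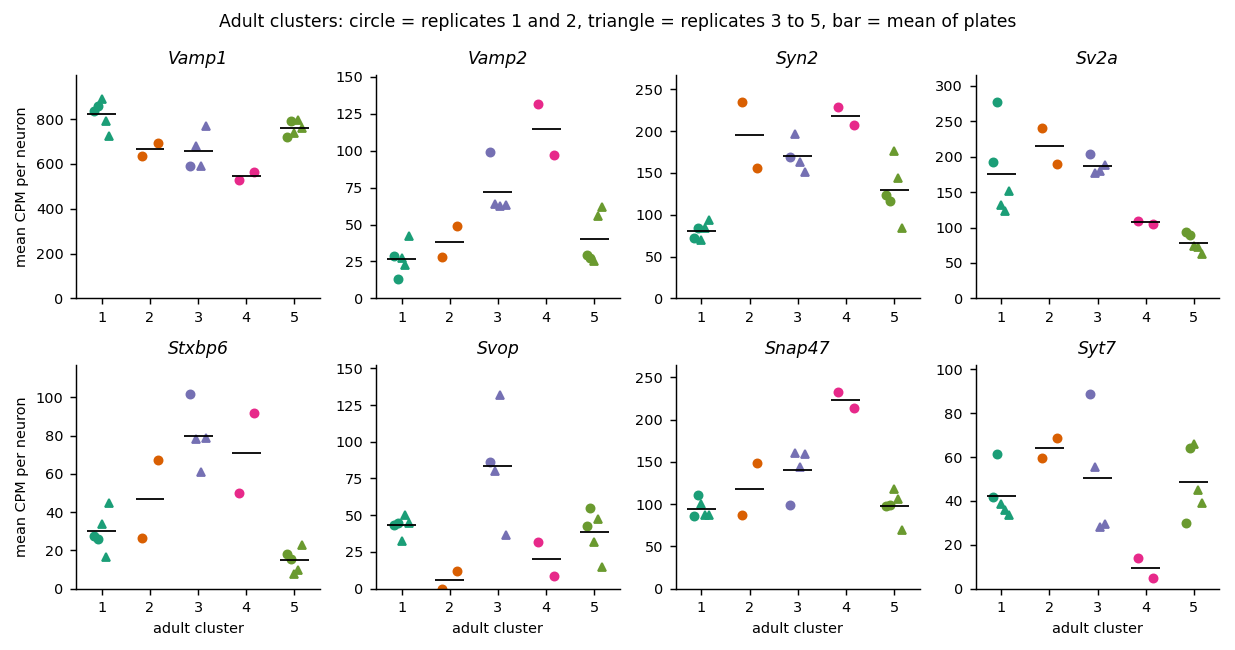
Mean level of 8 genes (CPM, linear axes from 0) in each adult cluster; a point is the neurons of 1 cluster on 1 plate, as a circle for replicates 1 and 2 and a triangle for replicates 3 to 5, and a bar is the mean. Syn2 and Vamp2 stood low in cluster 1, Stxbp6 had its highest mean in cluster 3 and its lowest in cluster 5, and Snap47 stood at 233 and 214 CPM in cluster 4.

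In cluster 1, 10 genes were called against the mean of the other clusters (38.5%), 2 higher and 8 lower, against 12.6% of all genes (6.23% higher, 6.39% lower), with medians of -0.01 and 0.02. *Syn2* stood at 72.1, 84.3, 69.9, 84.4 and 94.3 CPM in cluster 1, at 235 and 155 in cluster 2, 169, 196, 164 and 151 in cluster 3, 228 and 207 in cluster 4 and 124, 117, 177, 144 and 83.9 in cluster 5. Every cluster 1 sum was below all others but that of cluster 5 on adult replicate 5, and the difference was -1.27 ± 0.13 (adjusted p = 4.69e-08). *Vamp2* stood at 28.4, 13.02, 27.2, 22.4 and 42.2 CPM in cluster 1 and was lower there by 1.37 (-1.37 ± 0.23, adjusted p = 0.000144, but 0.0807 without adult replicate 2). *Vamp1* stood at 835, 861, 890.2, 791 and 727 CPM in cluster 1 against 528 to 797 in the other clusters, and was higher by 0.36 ± 0.07 (adjusted p = 0.00121), with overlap with clusters 3 and 5. *Snap47* was lower in cluster 1 by 0.60 (-0.60 ± 0.13, adjusted p = 0.00233), at 86.1 to 111 CPM. On replicates 1 and 2 alone *Snap47* differed by -0.25 (adjusted p = 0.64) and on replicates 3 to 5 alone by -0.44 (0.113), while *Vamp1* on replicates 3 to 5 alone differed by 0.17 (0.36). In thinned neurons the difference of *Syn2* was -0.77 (0.0802).

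*Sv2a* stood at 193, 277, 132, 123 and 152 CPM in cluster 1 and was called higher (0.47 ± 0.13, adjusted p = 0.0137), but without adult replicate 2 the difference was 0.18 (0.532). *Stxbp6* was called lower in cluster 1 (-0.90 ± 0.23, adjusted p = 0.0105), and without adult replicate 2 the difference was -0.50 (0.444). On replicates 3 to 5 alone *Sv2a* differed by 0.14 (0.69) and *Stxbp6* by -0.28 (0.739). *Syt1* stood at 28.5, 18.4, 24.0, 26.8 and 0 CPM in cluster 1 and was lower by 0.87 (-0.87 ± 0.25, adjusted p = 0.0189), and leaving out replicate 1 (0.0582), 2 (0.19) or 3 (0.0596) ended the call. The smaller differences of *Syngr3* (-0.47 ± 0.15, adjusted p = 0.0359), *Syt4* (-0.43 ± 0.14, 0.0428) and *Cplx1* (-0.20 ± 0.06, 0.0256) were lost without 4, 4 and 5 of the 5 plates left out in turn, with adjusted p up to 0.194, 0.15 and 0.122.

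In cluster 5, 6 genes were called lower and none higher (23.1%), against 7.42% of all genes (4.29% higher, 3.13% lower), with medians of -0.14 and 0.01. *Stxbp6* stood at 18.1, 15.4, 7.67, 9.68 and 22.8 CPM in cluster 5, at 26.3 and 67.3 in cluster 2, 102, 78.1, 61.0 and 78.9 in cluster 3 and 49.9 and 91.9 in cluster 4. The cluster 5 sums were below all sums of clusters 2 to 4, and the difference of -1.90 ± 0.28 (adjusted p = 4.87e-05) was called under every alternative that could be fitted. *Sv2a* stood at 94.2, 88.9, 73.8, 72.9 and 62.9 CPM in cluster 5, below every sum of the other clusters, and the difference was -0.96 ± 0.16 (adjusted p = 0.000172). *Syngr1* (-0.35 ± 0.09, adjusted p = 0.0162) and *Syp* (-0.32 ± 0.09, 0.023) were lower by less. Leaving out adult replicates 1, 2, 3 or 4 ended the call of *Syngr1* (adjusted p between 0.0542 and 0.243), and leaving out replicates 1, 2, 3 or 5 that of *Syp* (between 0.0513 and 0.165). In thinned neurons the difference of *Sv2a* was -0.61 (0.49). *Snap47* (-0.60 ± 0.14, adjusted p = 0.00851) was not called without adult replicate 1 (0.0629) or replicate 2 (0.232), and *Syngr3* (-0.52 ± 0.16, 0.0498) was not called under any of the 14 alternatives.

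Clusters 1 and 5 were also compared directly, since both were on all 5 plates. Of the 26 genes, 3 were called (11.5%), against 9.66% of all genes (4.34% higher and 5.32% lower in cluster 1), with medians of 0.07 and 0.00, so that the share lay near that of all genes. *Sv2a* was higher in cluster 1 by 1.14 ± 0.16 (adjusted p = 1.74e-05), on 5 of 5 plates. On replicates 1 and 2 alone the difference was 1.42 and on replicates 3 to 5 alone 0.83, with adjusted p of 0.000146 and 0.00955. *Syn2* was lower in cluster 1 by 0.76 (-0.76 ± 0.15, adjusted p = 0.000895), and *Syngr1*, at 366, 415, 321, 323 and 317 CPM in cluster 1 and 279, 267, 223, 214 and 250.4 in cluster 5, was higher by 0.44 ± 0.10 (adjusted p = 0.0036). These 3 calls held without each plate in turn but not in thinned neurons, where *Sv2a* differed by 1.09 (0.0919), *Syn2* by -0.28 (0.847) and *Syngr1* by 0.13 (0.888). On replicates 1 and 2 alone, *Syn2* (0.133) and *Syngr1* (0.117) were not called, nor was *Syngr1* on replicates 3 to 5 alone (0.0592). Whether this contrast differed between replicates 1 and 2 and replicates 3 to 5 was tested with an edgeR interaction term, which called 0 of the 26 genes (0 at an unadjusted p under 0.05, and 0 called with DESeq2's size factors) and 1 of all 6985 tested genes (0.0143%, with 242 at an unadjusted p under 0.05). The test does not show that the contrast was the same on both sets of plates.

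In cluster 3, 3 genes were called higher (11.5%), against 0.421% of all genes (0.258% higher, 0.163% lower), with medians of 0.10 and 0.00. *Svop* stood at 86.0, 80.1, 132 and 36.1 CPM in cluster 3, against 32.5 to 50.4 in cluster 1, 0 and 11.9 in cluster 2, 31.9 and 8.60 in cluster 4 and 15.0 to 54.6 in cluster 5. The difference was 2.15 ± 0.30 (adjusted p = 0.000238), with the lowest cluster 3 sum within the range of clusters 1 and 5. On replicates 1 and 2 alone it was 0.77 (adjusted p = 0.808), where cluster 3 was 1 sum of 2 neurons. *Stxbp6* was higher in cluster 3 by 1.36 ± 0.28 (adjusted p = 0.0231), and the call was lost without adult replicate 1 (0.137), replicate 3 (0.105) or replicate 4 (0.137). *Sv2a*, at 203, 178, 179 and 188 CPM, was higher by 0.93 ± 0.17 (adjusted p = 0.00899), and the call was lost without adult replicate 3 (0.0663) or replicate 4 (0.0932). The gene of *Svop* overlaps that of *Usp30* in the annotation, so its level is uncertain where the counting did not use strand.

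In cluster 4, 6 genes were called (23.1%), 4 higher and 2 lower, against 4.88% of all genes (3.32% higher, 1.56% lower), with medians of 0.03 and 0.02. *Vamp2* stood at 132 and 97.2 CPM in cluster 4, and was higher by 1.70 ± 0.31 (adjusted p = 0.000941, and 0.0949 without adult replicate 1). *Snap47*, at 233 and 214 CPM, was above every other sum and higher by 1.11 ± 0.19 (adjusted p = 0.000581, and 0.138 without replicate 1). *Syt4*, at 293 and 581 CPM, was higher by 0.97 ± 0.20 (adjusted p = 0.00295), and by 0.44 without replicate 2 (0.425). *Syn2* was higher by 0.96 ± 0.18 (adjusted p = 0.0015), but not called without replicate 1 (0.0755) or replicate 2 (0.0587), and in thinned neurons its difference was -0.36 (0.694). *Vamp1*, at 528 and 566 CPM, was lower by 0.46 (-0.46 ± 0.12, adjusted p = 0.0297, and 0.256 and 0.274 without either replicate). *Syt7* stood at 14.1 and 4.99 CPM in cluster 4, from 6 and 1 UMIs, and was called lower (-2.01 ± 0.46, adjusted p = 0.00861), but not without replicate 1 (0.0577) or replicate 2 (0.232).

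In cluster 2, whose 15 neurons lay on 2 plates, edgeR called 0 of the 26 genes, with 3 at an unadjusted p under 0.05, against 0.217% of all genes called (0.176% higher, 0.0407% lower). DESeq2 also called 0, with 2 at an unadjusted p under 0.05. With this number of neurons a difference of the size seen in the other clusters may not have been detectable.

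Clusters 2 and 4 gave sums only on adult replicates 1 and 2, so levels were also compared between these plates and replicates 3 to 5 within clusters 1 and 5. This comparison was added after the data were seen. Of the 26 genes, 6 differed (23.1%), 5 higher and 1 lower on replicates 1 and 2, against 20.1% of all genes (11.0% higher, 9.11% lower). The share thus lay near that of all genes. Of the markers, *Maf* (1.41 ± 0.15, adjusted p = 4.72e-06) and *Runx3* (1.09 ± 0.27, 0.00828) were higher on replicates 1 and 2. *Pvalb* was lower there (-0.36 ± 0.07, adjusted p = 0.00235), and *Etv1*, *Ntrk3* and *Whrn* were not called. *Rab3a* stood at 986 and 948 CPM in cluster 1 on replicates 1 and 2 and at 1307, 1341 and 1717 on the others, and at 771 and 844 against 1286, 1328 and 1789.9 in cluster 5. It was lower on replicates 1 and 2 in both clusters without overlap (-0.69 ± 0.11, adjusted p = 0.000323), although it was not called between the clusters. *Syt4* stood at 189.7 and 278 CPM against 104, 98.0 and 80.8 in cluster 1, and 247 and 206 against 111, 137 and 102 in cluster 5 (1.08 ± 0.14, adjusted p = 2.72e-05). *Syp* (0.59 ± 0.11, adjusted p = 0.00139), *Syt11* (0.29 ± 0.08, 0.0122), *Sv2a* (0.55 ± 0.17, 0.0317) and *Syn1* (0.46 ± 0.16, 0.0461) were higher on replicates 1 and 2. Which of the 3 adult experiments and which animals a plate came from is not named, so a preparation, an animal and a plate cannot be told apart.

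**Figure D5:**
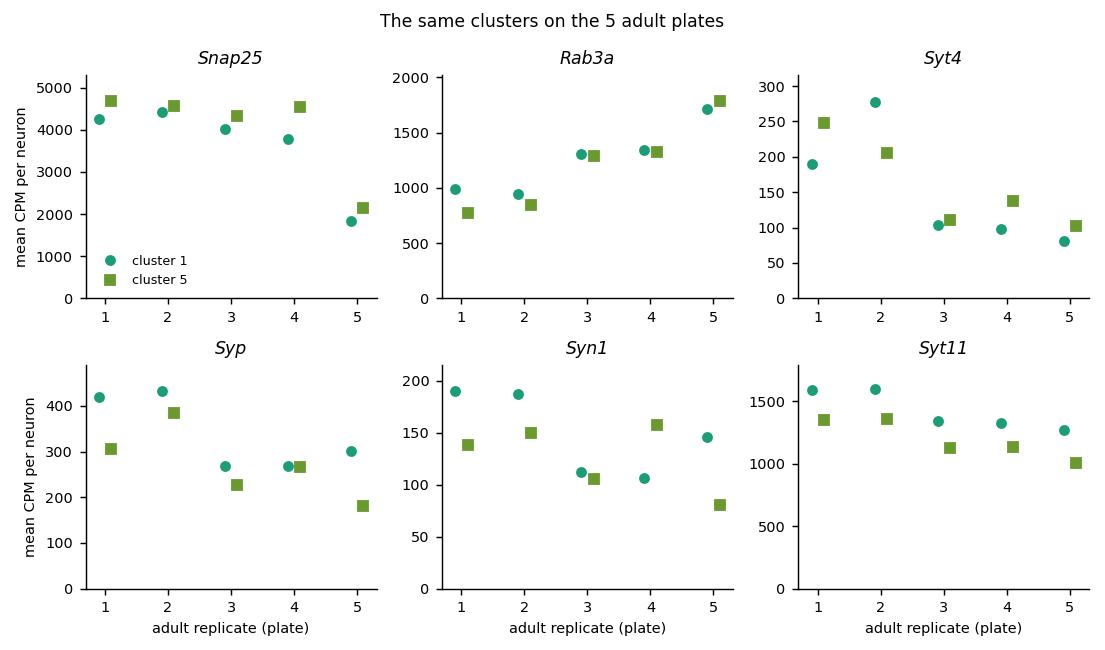
Mean level of 6 genes (CPM, linear axes from 0) in adult clusters 1 (circles) and 5 (squares) on each of the 5 adult plates. Rab3a lay between 771 and 986 CPM on replicates 1 and 2 and between 1286 and 1789.9 on replicates 3 to 5, Syt4 moved the other way, and Snap25 was lowest on replicate 5 in both clusters.

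Of the wider list of release genes, 60 were tested across the clusters and 14 differed between some of them (23.3%, against 16.0% of all genes). In cluster 1, 12 were called (6 higher, 6 lower; 20.0%, against 12.6% of all genes), with *Slc17a6*, a vesicular glutamate transporter, higher by 3.09 ± 0.30 (adjusted p = 3.75e-08), *Rab3il1* by 1.98 and *Rph3a*, the Rab3 effector rabphilin, by 1.82 ± 0.17 (adjusted p = 1.15e-08), and *Rims3* (-3.09), *Vamp8* (-3.06) and *Dnm3* (-0.82) lower. In cluster 5, 1 was higher and 5 were lower (10.0%, near the 7.42% of all genes), with *Rph3a* higher by 2.65 ± 0.16 (adjusted p = 1.02e-11) and *Scamp5* (-0.69) and *Napb* (-0.55) among the lower ones. Mean *Rph3a* levels were 246 ± 42.8 CPM (SD, n = 5 plates) in cluster 1, 56.3 in cluster 2, 68.2 in cluster 3, 13.9 in cluster 4 and 405 ± 54.2 (n = 5) in cluster 5. In cluster 4, 4 were higher and 1 lower (8.33%, against 4.88% of all genes), with *Rims3* (2.77), *Stx4a* (1.17) and *Sncg* (0.72) higher and *Rph3a* lower (-3.01 ± 0.42, adjusted p = 4.6e-05). In cluster 3 *Sncb* alone was called (0.43), and in cluster 2 none by edgeR. Between clusters 1 and 5, 10 were called (16.7%, against 9.66% of all genes), 7 higher in cluster 1, with *Slc17a6* at 2.25 and *Rims3* at -2.43.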

How the data were processed

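UMI counts per gene and well were deposited by the authors, who aligned reads to mm10 (GRCm38) with STAR and the NCBI annotation, assigned reads to wells by barcode, and counted each UMI once. These counts are whole numbers without normalization, and whether counting used strand is not given in the sources used here. Of the 40 genes, 12 are overlapped by another coding gene. The authors' deposited annotation gives the kept neurons, their plates and their clusters (hicat). Plates were grouped by stage from their labels. The same 96 well barcodes served all 13 plates, and doublets were not called, since wells were sorted with 1 neuron each.

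CPM used all UMIs of a neuron. Sums per plate (stages, all 13 plates in 1 fit) or per cluster and plate (plate as block) entered quasi-likelihood F-tests of edgeR 4.0.16 (R 4.3.3, limma 3.58.1 as dependency) after filterByExpr and TMM, with p-values adjusted after Benjamini and Hochberg and called under 0.05, and adjusted p-values without another tool named are from these fits. Standard errors are the log2 fold change divided by the root of F. Levels, ratios and figures were made with Python 3.11.15, numpy 2.4.6, pandas 2.3.3 and matplotlib 3.10.9. The fits were tested on simulated counts. The precision is limited by 2 plates at e14.5 and p0, by 12 to 94 neurons per plate and by the depths given with the results, and intervals are exact 95% intervals for counting error only.

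Alternatives were DESeq2 1.42.0, its size factors within the edgeR fit, the unfiltered gene table, neurons thinned to 7000 UMIs, sums of at least 1 or 4 neurons, no plate block, e14.5 clusters 1 and 2 only, numbered adult clusters only, single sets of plates, and each plate left out. All 40 genes could be named, and of 111 other release genes the called ones with the largest changes, up to 3 each way. Results of a few genes are not reported here. The genes, lists and comparisons were chosen with earlier results of these data known. Promoter windows are from RefSeq (GRCm38.p6), whose table held one for 29 of the 40 genes.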

Additional observations from a re-analysis of the deposited data

Results flagged for a closer look

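Among 75 groups of plates, each the plates of 1 gene at p12 or in the adult, 4 held a plate that stood apart from the others, where chance gives about 1 in 20. Snap25, the plasma membrane SNARE, stood at 2019.8 CPM on adult replicate 5 against 3975 to 4639 CPM on the other 4 adult plates. Adult replicate 5 held 20 kept neurons and the highest summed level of glia markers, 852 CPM, and the part of either in the low value was not tested. Rab3b, the vesicle GTPase, stood at 10.5 CPM on p12 replicate 1 against 0 to 1.78 CPM on the other p12 plates, and this replicate held 12 kept neurons. Syn3, a synapsin, stood at 5.44 CPM on adult replicate 5 against 1.01 to 2.06 CPM on the others. Syt9, a calcium sensor, stood at 4.13 CPM on adult replicate 1 against 0.778 to 1.68 CPM on the others.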

How the results depend on the processing

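Counts of called vesicle and release genes from e14.5 to p0 (16) and from e14.5 to the adult (31) stayed within 1.5 times under every alternative, between 13 and 14 and between 25 and 32 with 1 plate left out. From p0 to p12 (17 called), leaving out 1 plate gave 9 to 17, the lowest without p0 replicate 1. From p12 to the adult (11 called, 14.1% of all genes), thinned neurons gave 4 (11.3%), p12 replicates 1 and 2 alone 6 (4.92%) and replicates 3 and 4 alone 19 (25.9%), both added after the data were seen, and 1 plate left out 7 (6.88% without p12 replicate 3 and 7.85% without replicate 4) to 13. Across adult clusters (11 called), thinned neurons gave 6 and 1 plate left out 9 to 11. In cluster 1 (10 called), thinned neurons gave 2, replicates 1 and 2 alone 4, replicates 3 to 5 alone 2, and 1 plate left out 4 to 8. In cluster 2 (0 called), no filter and sums of at least 4 neurons each gave 1. In cluster 3 (3 called, 0.421% of all genes), DESeq2 gave 1 (0.393%), thinned neurons 1 (0.564%), replicates 1 and 2 alone, with 1 sum of 2 neurons, 0 (1.12%), replicates 3 to 5 alone 7 (5.77%), and 1 plate left out 1 to 3. In cluster 4 (6 called), thinned neurons gave 3 and 1 plate left out 1 to 6. In cluster 5 (6 called), thinned neurons gave 0, replicates 1 and 2 alone 2, and 1 plate left out 2 to 5. Between clusters 1 and 5 (3 called), no filter gave 5, thinned neurons 0 and replicates 1 and 2 alone 1. Without the plate as a replicate block, the count was 5 in cluster 1, 2 in cluster 3, 5 in cluster 4, 3 in cluster 5, 3 between clusters 1 and 5 and 10 across clusters. Thinned sums tested fewer genes, 28 of the vesicle and release genes between stages and 19 across clusters. The difference of Syn2 in cluster 4 turned to -0.36 in thinned neurons (adjusted p = 0.694), and the cause was not tested. No other called gene turned direction under the alternatives tried. With DESeq2's size factors the median of all genes from e14.5 to the adult was -0.06 in place of 0.06, and the calls were 21 higher and 11 lower. Of the mean levels, 13 of 160 moved by more than 1 SD when UMIs were pooled over a plate. Shares of neurons with a UMI moved with depth, in 122 of 160 gene and stage groups after thinning and in 119 with at least 2 UMIs. Stages came from different animals, so stages were not compared as pairs. The main cluster comparisons kept the plate as a block.

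Limits are the depth, since genes under about 10 CPM rest on a few UMIs per plate, and the number of plates, with 2 each at p0 and e14.5 and 2 for clusters 2 and 4: of the calls, 9 of 17 from p0 to p12 and 0 of 6 in cluster 4 held without each plate in turn.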
